A study of Arabidopsis thaliana with 14 samples.

Results

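AOP3 (AT4G03050), UGT74B1 (AT1G24100) and APS4 (AT5G43780) are 3 Arabidopsis genes of glucosinolate and sulfur metabolism. They were chosen by symbol, and each had 1 probe set that the platform annotation gives to that gene alone, so 3 of 22746 tested probe sets are described here. Transcript levels came from Affymetrix arrays hybridized with RNA of whole seedlings aged 12 days, grown on agar plates under 16 h of light and 8 h of darkness. The 14 arrays formed 6 groups. The csn5a-1 mutant was set against the Columbia wild type, with 3 biological replicates of each. The mutant that the labels call CSN8 was set against the Wassilewskija wild type, and a further pair of groups of the same genotypes carries DTT in its labels. This gave CSN8 + DTT, Wassilewskija + DTT, CSN8 and Wassilewskija, at 2 arrays each. These 2 arrays came from batch 1 and batch 2. DTT is the common short name of dithiothreitol, a reducing agent that disturbs the folding of secreted proteins. Its dose and duration are not in the labels, whose shared protocol text mentions no treatment at all, and the accession that carries the CSN8 mutation is not stated. CSN5A and CSN8 are subunits of the COP9 signalosome, which regulates cullin-based ubiquitin ligases by stripping RUB, a relative of ubiquitin, off the cullin. Neither gene had a single-gene probe set here (0 for each), and genotype could not be checked this way.

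Glucosinolates are sulfur-rich defence compounds of the cabbage family. Amino acids, in part after elongation of methionine, are turned into a core structure by cytochrome P450 enzymes, glutathione transferases, UDP-glucosyltransferases and sulfotransferases, and the side chain is then modified. UGT74B1 is the glucosyltransferase that adds glucose to the thiohydroximate intermediate of the core pathway. AOP3 is a 2-oxoglutarate-dependent dioxygenase that converts methylsulfinylalkyl into hydroxyalkyl glucosinolates, and its locus is known to differ between accessions in which copy is active. APS4 is a plastid ATP sulfurylase, an enzyme family that activates sulfate at the entry of sulfate assimilation, upstream of cysteine and of the sulfate donor used in the last step of the glucosinolate core.

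The deposited values are log2 levels. Sorted values differed by a median of 0.472 to 0.534 between the 6 Columbia and csn5a-1 arrays and the 8 others, against 0.0117 to 0.0758 within these sets, so levels were tested within a set unless stated. Arrays of 1 group correlated with r of 0.978 to 0.996. Of the markers of green tissue, 3 of 15 listed genes were measured, and their median level was 10.2 to 12.38 on every array. The 2 measured root markers of 9 listed lay at 4.06 to 6.29, and the 2 flower and pollen markers of 10 listed at 3.22 to 3.92. RNA quality was read from control probe sets at both ends of a transcript. For GAPDH the 3′ end exceeded the 5′ end by 1.67 log2 units on the array of CSN8 batch 1 and by 0.25 to 0.62 on the other arrays of that set. On the Columbia and csn5a-1 arrays the excess was 1.24 to 1.67. The labels number the csn5a-1 and Columbia samples as biological replicates. For the batches nothing says how the seedlings were raised, so p-values measure the spread between these samples, and with whole seedlings fewer cells of a type and less RNA per cell cannot be told apart.

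AOP3 was close to the lower end of the measured values in csn5a-1 seedlings and high in Columbia. Its level was 3.6, 3.62 and 3.69 in the csn5a-1 replicates, against 8.47, 7.48 and 8.59 in Columbia. The groups lay far apart, and the csn5a-1 values were tightly grouped while Columbia replicate 2 was lower than the other two. The log2 difference was -4.55 ± 0.27 (SE; 95% interval -5.18 to -3.91; limma, adjusted p = 3.65e-05), which corresponds to 23.3-fold lower AOP3 signal in csn5a-1. On the csn5a-1 arrays AOP3 stood only at percentiles 25 to 25.8 of all probe sets, and on the Columbia arrays at 70.7 to 84.2. With values raised to the lowest 33.3% of each array, AOP3 was at least 15.2-fold lower (log2 -3.93, adjusted p = 0.00218).

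APS4 also fell in csn5a-1, while UGT74B1 did not pass the threshold. APS4 had levels of 7.51, 7.43 and 7.56 in csn5a-1 and of 9.25, 8.67 and 8.62 in Columbia. Every csn5a-1 value was lower than every Columbia value, and the difference was -1.35 ± 0.18 (SE; adjusted p = 0.00114), 2.54-fold lower. UGT74B1 had levels of 8.53, 8.79 and 8.39 in csn5a-1 and of 8.82, 8.98 and 9.01 in Columbia. These groups were adjacent, with csn5a-1 replicate 2 just below Columbia replicate 1, and the difference of -0.36 ± 0.13 had an adjusted p = 0.0736. It passed after median centring (-0.4, adjusted p = 0.0483) and without csn5a-1 replicate 2 (-0.48, adjusted p = 0.0439). Thus 2 of the 3 genes were lower in csn5a-1, in a comparison in which 32.9% of all probe sets passed the threshold of an adjusted p under 0.05, 16.0% as higher and 16.8% as lower in csn5a-1.

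**Figure D1:**
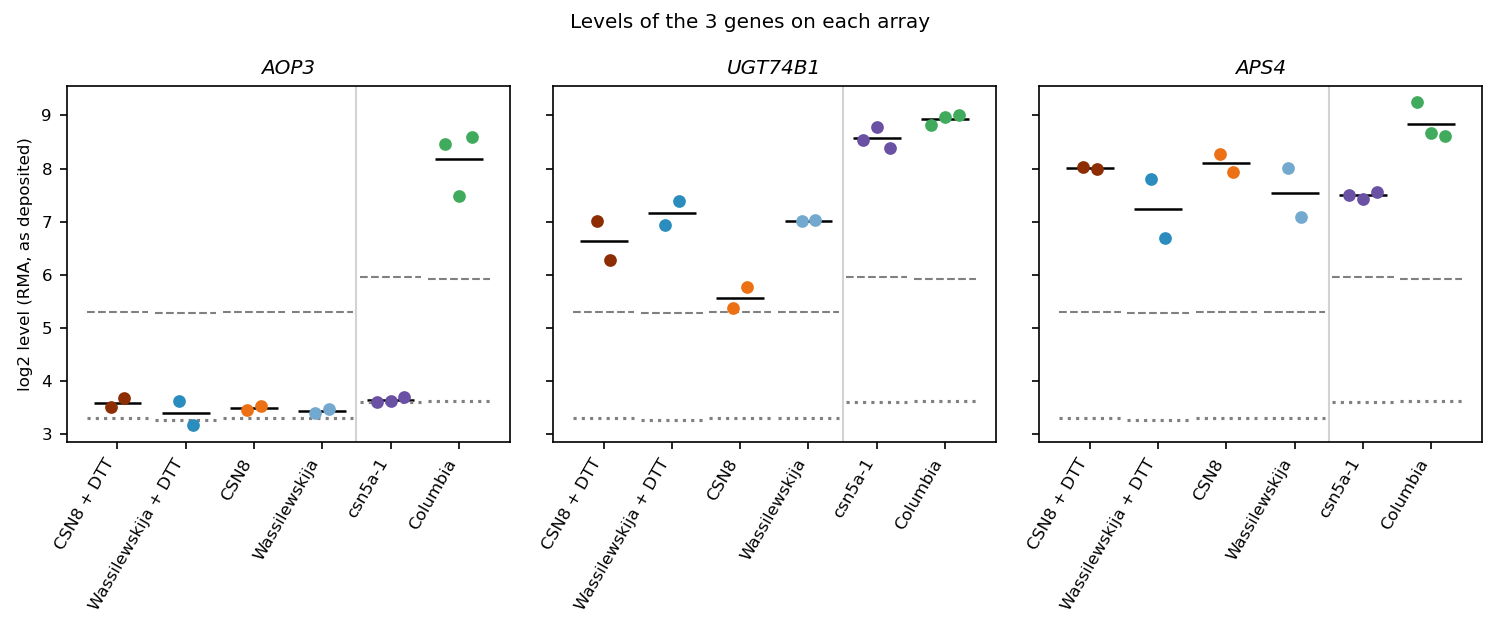
Deposited log2 levels (vertical axis) of AOP3, UGT74B1 and APS4 on each array, by group. Points are arrays, black bars group means, dotted lines the 25th percentile and dashed lines the median of all probe sets in the group, and the vertical line parts the 2 sets of arrays. AOP3 lies at 7.48 to 8.59 in Columbia and at 3.16 to 3.69 in the other groups, UGT74B1 is lowest in CSN8, and APS4 spans 6.69 to 9.25 over all arrays.

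The Columbia seedlings also had high levels of transcripts that are typical of late seed development. Of 34 listed late seed markers 12 were measured. Among them 10 were lower in csn5a-1 and 2 higher, with a median difference of -3.18. Of all probe sets 32.9% passed in this comparison, 16.0% as higher and 16.8% as lower. The median level of the 12 markers was 4.82, 4.81 and 4.83 in the csn5a-1 replicates and 7.63, 7.33 and 7.8 in Columbia. At most 2 of the 12 lay below the 25th percentile on a csn5a-1 array, and none did on a Columbia array. Within Columbia, replicate 2 had the lowest marker median and the lowest AOP3 level. Of the single markers, BGLU19, AT3G17520, LEA4-5 and AT2G42560 were lowest in replicate 1 and others in replicate 2. Whether AOP3 and the markers vary together among these replicates was not tested. On the 8 arrays of the other set the marker median ranged from 3.42 to 5.66, while AOP3 stayed between 3.16 and 3.68. Other markers also moved in csn5a-1. Of the green tissue markers LHCB4.3 was higher (2.07), LHCB4.2 was lower (-0.88) and LHCB4.1 did not pass (-0.14). Of the 2 root markers 1 was called higher (median 0.55). The part of late seed, green tissue or root transcripts in the AOP3 and APS4 differences was not tested. For actin, the 3′ end exceeded the 5′ end by 4.95, 4.56 and 3.93 in csn5a-1 and 3.35, 3.67 and 3.59 in Columbia, and its part was not tested either.

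**Figure D2:**
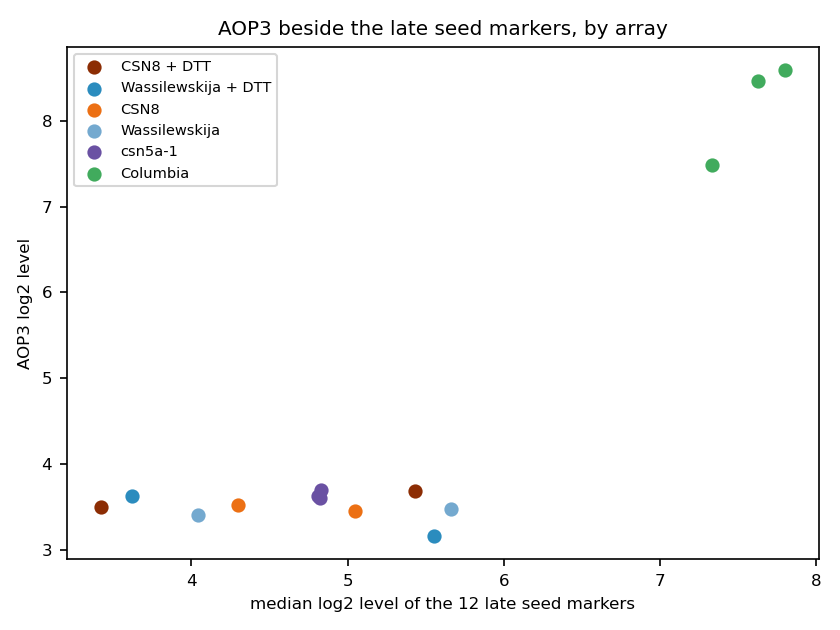
AOP3 log2 level (vertical axis) against the median log2 level of 12 late seed markers (horizontal axis) on each array, coloured by group. The 3 Columbia arrays stand alone at a marker median of 7.33 to 7.8, and the other 11 arrays have a marker median of 3.42 to 5.66 and AOP3 at 3.16 to 3.69.

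Between CSN8 and Wassilewskija the gene that changed was UGT74B1. Its level was 5.37 and 5.77 in CSN8 of batches 1 and 2, against 7.01 and 7.03 in Wassilewskija. Both mutant arrays were clearly lower, and the difference was -1.45 ± 0.29 (SE; 95% interval -2.13 to -0.77; adjusted p = 0.0362), 2.73-fold lower. Within batches 1 and 2 it was -1.64 and -1.26. Leaving out CSN8 of batch 1 (-1.25, adjusted p = 0.158), CSN8 of batch 2 (-1.65, 0.0603), Wassilewskija of batch 1 (-1.46, 0.134) or Wassilewskija of batch 2 (-1.44, 0.116) ended the call. Raising low values also ended it (-1.45, adjusted p = 0.0735). Over all probe sets 5.83% passed in this comparison, 2.84% as higher and 2.99% as lower in CSN8, so 1 of the 3 genes was called. The array of CSN8 batch 1 is the one of its set with the large GAPDH excess at the 3′ end, and the part of RNA quality was not tested. Root markers had a median difference of -0.92 here with 0 of 2 called by limma, 1 at an unadjusted p under 0.05, and the 3 green tissue markers, genes of light-harvesting proteins, split. LHCB4.3 was higher (2.94, adjusted p = 0.00672), while LHCB4.2 (-1.38, adjusted p = 0.127) and LHCB4.1 (-0.33, adjusted p = 0.265) did not pass. The part of these markers was not tested.

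With DTT the difference in UGT74B1 did not pass. Levels were 7.01 and 6.27 in CSN8 + DTT and 6.94 and 7.38 in Wassilewskija + DTT, so the groups overlapped. The difference was -0.52 ± 0.29 (adjusted p = 0.408), and the batches disagreed, with 0.07 in batch 1 and -1.12 in batch 2. None of the 3 genes was called here by limma, where 4.13% of all probe sets were (2.08% higher, 2.05% lower), and none had an unadjusted p under 0.05. Averaged over both DTT states, UGT74B1 was lower in CSN8 by -0.99 ± 0.2 (adjusted p = 0.0223), or 1.98-fold, with -0.78 and -1.19 in batches 1 and 2. In that average 14.9% of all probe sets passed, 7.40% as higher and 7.48% as lower. Among the green tissue markers LHCB4.3 was higher (2.65) and LHCB4.2 (-1.59) and LHCB4.1 (-0.44) were lower, and 1 of 2 root markers was lower (median -0.72). Their part in this and the other differences over both DTT states was not tested. The call for UGT74B1 was lost without Wassilewskija of batch 1 (adjusted p = 0.0612), CSN8 of batch 1 (0.0651), Wassilewskija of batch 2 (0.0582) or Wassilewskija + DTT of batch 2 (0.0834).

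APS4 had higher mean levels in the CSN8 mutant than in Wassilewskija, but no difference passed. It was at 8.27 and 7.93 in CSN8 and at 8.01 and 7.08 in Wassilewskija of batches 1 and 2. With DTT it was at 8.02 and 7.99 in CSN8 + DTT and at 7.8 and 6.69 in Wassilewskija + DTT. The wild type differed between batches while the mutant varied less, and the mutant lay above its wild type within each batch. The differences were 0.56 ± 0.42 (adjusted p = 0.533) without DTT, 0.76 ± 0.42 (adjusted p = 0.411) with DTT, and 0.66 ± 0.3 over both states (95% interval -0.05 to 1.37; adjusted p = 0.197). Over both states they were 0.24 in batch 1 and 1.08 in batch 2. Leaving out 1 array moved these values to between 0.09 (without Wassilewskija of batch 2) and 1.02 (without Wassilewskija of batch 1) without DTT. With DTT they lay between 0.2 (without Wassilewskija + DTT of batch 2) and 1.32 (without that of batch 1), and over both states between 0.38 and 0.94. The late seed marker median was 5.05 and 4.3 in CSN8, 4.04 and 5.66 in Wassilewskija, 3.42 and 5.43 in CSN8 + DTT and 3.62 and 5.55 in Wassilewskija + DTT of batches 1 and 2. In the wild type groups it was higher in batch 2, where APS4 was lower, and its part was not tested.

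AOP3 was low on every array of this set. It lay at 3.45 and 3.52 in CSN8, at 3.4 and 3.47 in Wassilewskija, at 3.5 and 3.68 in CSN8 + DTT and at 3.63 and 3.16 in Wassilewskija + DTT. These values sit at percentiles 23.7 to 31.6 of their arrays, close to the lower end of the values. Only Wassilewskija + DTT of batch 2, at 3.16, lay below the percentile used as the limit for near the lower end. The lowest values of any probe set on these arrays were 1.8 to 1.96. A lower AOP3 level may still not have been measurable, which was not tested. The CSN8 minus Wassilewskija difference was 0.05 ± 0.19 without DTT (95% interval -0.4 to 0.49; adjusted p = 0.929) and 0.19 ± 0.19 with it (adjusted p = 0.68).

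**Figure D3:**
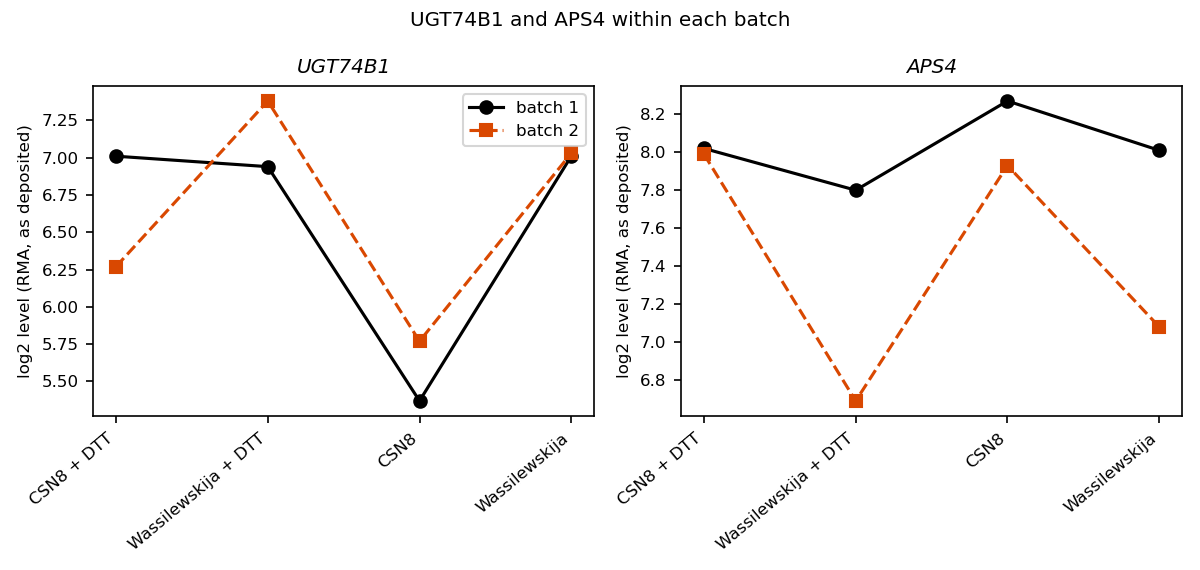
Deposited log2 levels (vertical axes, which do not start at 0) of UGT74B1 and APS4 in CSN8 + DTT, Wassilewskija + DTT, CSN8 and Wassilewskija, with 1 line for each batch. UGT74B1 is at 5.37 and 5.77 in CSN8, below the other groups in both batches, and APS4 in the 2 wild type groups is lower in batch 2.

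DTT raised or lowered none of the 3 genes past the threshold. UGT74B1 in CSN8 came closest, with 7.01 and 6.27 in CSN8 + DTT and 5.37 and 5.77 in CSN8, a difference of 1.07 ± 0.29 (95% interval 0.39 to 1.75; adjusted p = 0.176). Both DTT arrays were higher, by 1.65 in batch 1 and 0.49 in batch 2. The same difference passed when all 14 arrays shared 1 fit (adjusted p = 0.0363). In Wassilewskija, with 6.94 and 7.38 under DTT against 7.01 and 7.03, UGT74B1 differed by 0.14 ± 0.29 (adjusted p = 0.999). The DTT effect in CSN8 minus that in Wassilewskija was 0.93 ± 0.41 for UGT74B1, with an unadjusted p = 0.0573 and an adjusted p = 1. It was 1.71 in batch 1 and 0.14 in batch 2. In that comparison limma called 0 of 22746 probe sets, and 662 had an unadjusted p under 0.05.

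No DTT difference of APS4 or AOP3 passed either. For APS4 they were -0.1 ± 0.42 in CSN8 and -0.3 ± 0.42 in Wassilewskija (adjusted p = 0.979 and 0.999). For AOP3 they were 0.11 ± 0.19 in CSN8 and -0.04 ± 0.19 in Wassilewskija (adjusted p = 0.936 and 0.999). Over both genotypes UGT74B1 differed by 0.61 ± 0.2 (unadjusted p = 0.021, adjusted p = 0.236), APS4 by -0.2 ± 0.3 (adjusted p = 0.885) and AOP3 by 0.03 ± 0.13 (adjusted p = 0.966). Few probe sets passed at all. The share was 1.29% in CSN8 (0.686% higher, 0.602% lower) and 0.365% in Wassilewskija (0.185% higher, 0.180% lower). Over both genotypes it was 2.34% (0.919% higher, 1.42% lower).

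The effects of the mutants were then set against each other, each relative to its own wild type. APS4 and UGT74B1 differed, in a comparison in which 17.6% of probe sets passed, 9.49% with a higher and 8.08% with a lower effect in CSN8. For AOP3 the comparison is not informative, because AOP3 was already close to the lower end in Wassilewskija and a decrease in CSN8 may not have been measurable. For APS4 the effects were 0.56 in CSN8 and -1.35 in csn5a-1, with a difference of 1.9 ± 0.47 (adjusted p = 0.0168). It did not pass without CSN8 of batch 1 (1.73, adjusted p = 0.0609) or Wassilewskija of batch 2 (1.44, adjusted p = 0.0598). For UGT74B1 the effects were -1.45 in CSN8 and -0.36 in csn5a-1, and the difference of -1.08 ± 0.32 was just past the threshold (adjusted p = 0.0364). With the replicate or batch number as a block the adjusted p was 0.0556, and of the 10 fits without 1 array only those without CSN8 of batch 2 and without csn5a-1 replicate 3 passed. The mutants, accessions and sets of arrays differ together here and cannot be told apart.

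**Figure D4:**
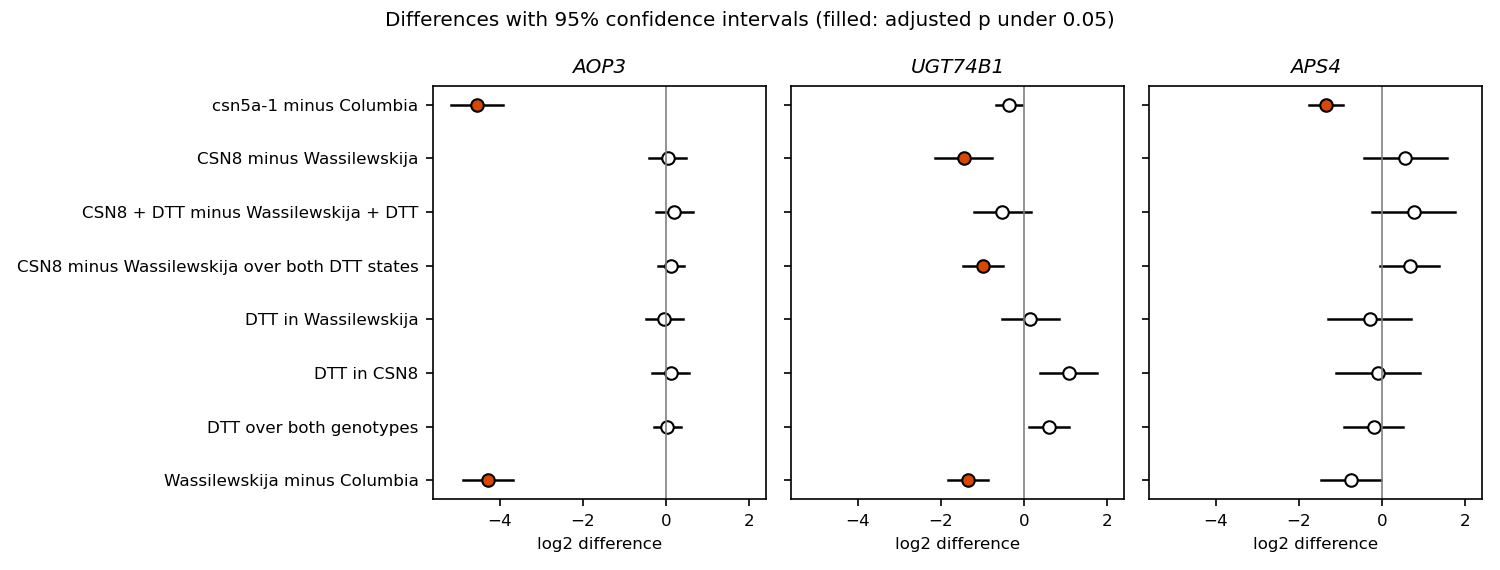
Log2 differences (points) with 95% confidence intervals (lines) of AOP3, UGT74B1 and APS4 in 8 comparisons, filled where the adjusted p was under 0.05. AOP3 is far below 0 in csn5a-1 minus Columbia (-4.55) and Wassilewskija minus Columbia (-4.27) and near 0 elsewhere. UGT74B1 is lower in CSN8 and in Wassilewskija, and APS4 passes in csn5a-1 minus Columbia.

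The accessions were compared after 1 quantile normalization of all 14 arrays. On that scale AOP3 was at 3.56 and 3.6 in Wassilewskija and at 8.15, 7.14 and 8.27 in Columbia. The accessions did not overlap, and AOP3 differed by -4.27 ± 0.27 (adjusted p = 1.03e-06), 19.3-fold lower in Wassilewskija, or at least 14.6-fold with low values raised. UGT74B1 was at 7.27 and 7.28 in Wassilewskija and at 8.48, 8.67 and 8.68 in Columbia, again without overlap, and was 2.53-fold lower (-1.34 ± 0.22, adjusted p = 0.00057). APS4 was at 8.22 and 7.33 in Wassilewskija and at 8.95, 8.35 and 8.3 in Columbia, which is nearly contiguous. Its difference of -0.76 ± 0.33 did not pass (adjusted p = 0.0902). On the deposited values it did (-1.3, adjusted p = 0.00587), but there the median of all probe sets was itself shifted by -0.43, and 85.9% of all calls were lower in Wassilewskija, against 50.2% after the joint normalization. It also passed without Wassilewskija of batch 1 (-1.2, adjusted p = 0.0345). Of all probe sets 39.2% passed, 19.6% as higher and 19.7% as lower in Wassilewskija, so 2 calls among 3 genes stand beside a high background. Of 12 late seed markers 9 were lower in Wassilewskija (median -2.11) and 0 higher by limma, with 3 not past the threshold, and the 2 root markers were higher (median 2.45). For GAPDH the 3′ end exceeded the 5′ end by 0.62 and 0.47 in Wassilewskija and by 1.24, 1.34 and 1.67 in Columbia. The part of these markers and of RNA quality in the accession differences was not tested. Each accession lies in its own set of arrays, and the array was designed on the Columbia genome. Accession, array set and the match of the probes to the Wassilewskija sequence cannot be told apart.

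Across the 6 groups on the joint scale, AOP3 was highest in Columbia (mean 7.85), followed by CSN8 + DTT (3.76), CSN8 (3.63), Wassilewskija + DTT (3.59), Wassilewskija (3.58) and csn5a-1 (3.45). Only the step below Columbia passed the threshold (4.09 ± 0.27, adjusted p = 7.66e-07), and the other neighbours did not (adjusted p = 0.764 to 0.998). UGT74B1 followed the order Columbia (8.61), csn5a-1 (8.3), Wassilewskija + DTT (7.42), Wassilewskija (7.27), CSN8 + DTT (6.88) and CSN8 (5.84). Its steps from csn5a-1 to Wassilewskija + DTT (0.88 ± 0.22, adjusted p = 0.009) and from CSN8 + DTT to CSN8 (1.04 ± 0.24, adjusted p = 0.0351) passed, and the others did not. The second of these is the DTT difference in CSN8, which did not pass in the limma fit of its own array set (1.07, adjusted p = 0.176). Steps between Columbia or csn5a-1 and a Wassilewskija or CSN8 group cross the 2 sets of arrays. Neighbours were picked by these same means. For APS4 the order was Columbia (8.53), CSN8 (8.34), CSN8 + DTT (8.22), Wassilewskija (7.78), Wassilewskija + DTT (7.47) and csn5a-1 (7.18), and no neighbouring groups differed past the threshold (adjusted p = 0.469 to 0.98).

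The 3 genes did not follow a common pattern. With each value taken relative to the mean of its array set, AOP3 and APS4 correlated with r of 0.76 over the 14 arrays, AOP3 and UGT74B1 with 0.19, and UGT74B1 and APS4 with -0.25. These arrays share groups and batches. Outside Columbia AOP3 varied only from 3.16 to 3.69, so its correlations rest mainly on the csn5a-1 and Columbia arrays. Of 76 listed glucosinolate genes 13 were measured by a single-gene probe set, AOP3 and UGT74B1 among them, and of 42 listed genes of sulfate transport, assimilation and sulfur status 5 were, with APS4 among them. No sulfate transporter (0 of 12) and no gene of cysteine or glutathione synthesis (0 of 10) was measured this way. AOP2, the close copy of AOP3, and APS1, APS2 and the APS reductase genes had no such probe set either. Whether transcripts of close copies contributed to the AOP3 or APS4 signal was not tested.

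Among regulators and early steps, MYC4 differed between the accessions, and BCAT4 differed between CSN8 and Wassilewskija over both DTT states. MYC3 and MYC4 are transcription factors that act with MYB proteins on glucosinolate genes. MYC4 was 2.42 log2 units lower in Wassilewskija (-2.42 ± 0.33, adjusted p = 0.00018), and in csn5a-1 its difference of -0.72 ± 0.29 did not pass (adjusted p = 0.0945). BCAT4, the aminotransferase that starts methionine chain elongation, was at 6.06 and 3.82 in CSN8, at 7.16 and 8.98 in Wassilewskija, at 5.6 and 3.83 in CSN8 + DTT and at 8.15 and 7.89 in Wassilewskija + DTT. All 4 mutant arrays, from 2 batches, were below all 4 wild type arrays. Over both DTT states BCAT4 was lower by -3.22 ± 0.65 (limma, adjusted p = 0.0211), with -1.83 and -4.62 in batches 1 and 2. It did not pass in either state alone, at -3.14 without DTT and -3.31 with it. In csn5a-1 it differed by -0.16 ± 0.2 (adjusted p = 0.605). Its difference between accessions was -1.77 ± 0.7 (adjusted p = 0.0664).

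In the core pathway GSTU20, a glutathione transferase, followed UGT74B1 in being lower in CSN8. Over both DTT states it was lower by -1.75 ± 0.26 (adjusted p = 0.00711; -1.42 and -2.08 within batches). With DTT alone the difference was -1.98 ± 0.37 (adjusted p = 0.0358), and leaving out any 1 of these 4 arrays brought the count of called glucosinolate genes there to 0. In csn5a-1 GSTU20 differed by 0.16 ± 0.26 (adjusted p = 0.689). The core list locus AT2G31790, which the gene tables used here do not name, was lower in csn5a-1 (-0.91 ± 0.21, adjusted p = 0.0128) and in Wassilewskija (-1.67 ± 0.29, adjusted p = 0.000874). In CSN8 over both DTT states AT2G31790 went the other way from UGT74B1 and GSTU20, by 0.32 and 0.88 in batches 1 and 2. That difference did not pass, and 0 of 4 core genes were called higher there. CYP79A2, which starts the synthesis of benzyl glucosinolate from phenylalanine, lay below the 25th percentile of the array in all groups. Its difference between accessions (-0.39 ± 0.12, adjusted p = 0.0232) is therefore between values near the lower end.

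Of the side chain genes, AOP1, the neighbouring copy of AOP3, was lower in csn5a-1 (5.97, 6.42 and 6.64 against 6.96, 7.29 and 7.98 in Columbia; -1.06 ± 0.28, adjusted p = 0.0229). It was also lower in Wassilewskija than in Columbia (-1.28 ± 0.38, adjusted p = 0.0212). In CSN8 over both DTT states AOP1 differed by -0.94 ± 0.3 (adjusted p = 0.0853). The side chain list locus AT2G25450, not named in the gene tables, went the other way. It was higher in csn5a-1 (11.5, 11.7 and 11.79 against 9.98, 10.44 and 10.04 in Columbia; 1.51 ± 0.15, adjusted p = 0.000376) and in Wassilewskija (1.22 ± 0.26, adjusted p = 0.0032).

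GTR1 and GTR2, the plasma membrane importers that move glucosinolates between tissues, were called in opposite directions in CSN8 over both DTT states. In either state alone 0 of 2 were called. GTR1 and GTR2 differed by 0.8 and -0.46 without DTT and by 0.48 and -0.79 with it. GTR2 was higher in csn5a-1 (0.78 ± 0.14, adjusted p = 0.00458) and lower in CSN8 over both DTT states (-0.63 ± 0.15, adjusted p = 0.0342). GTR1 was higher in CSN8 over both DTT states (0.64 ± 0.16, adjusted p = 0.04), did not pass in csn5a-1 (-0.23 ± 0.15, adjusted p = 0.269), and was lower in Wassilewskija than in Columbia (-2.15 ± 0.2, adjusted p = 1.31e-05). PYK10, an abundant β-glucosidase of endoplasmic reticulum bodies that can break glucosinolates down, was the measured glucosinolate gene that fell with DTT. It was at 9.69 and 8.81 in CSN8 + DTT and at 11.54 and 11.76 in CSN8 (-2.4 ± 0.31, adjusted p = 0.0272). Without CSN8 of batch 1, CSN8 + DTT of batch 1 or CSN8 of batch 2, 0 glucosinolate genes passed there. In Wassilewskija it was at 10.56 and 10.01 with DTT and at 12.12 and 12.02 without (-1.78 ± 0.31, adjusted p = 0.108). Over both genotypes it fell by 2.09 on the log2 scale (adjusted p = 0.00841). PYK10 is a gene of roots, and the 2 measured root markers were lower too over both genotypes. Their median difference was -1.38, with 1 of 2 called lower, where 1.42% of all probe sets were called lower. Their part was not tested.

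Next to APS4 in sulfate assimilation, APS3, another ATP sulfurylase, did not pass in any comparison. It was at 7.85, 7.52 and 7.62 in csn5a-1 and at 7.62, 7.35 and 7.4 in Columbia (0.21 ± 0.13, adjusted p = 0.26), and so did not share the lower level of APS4. Over both DTT states APS3 in CSN8 differed by -0.48 ± 0.27 (adjusted p = 0.293). SIR, the sulfite reductase, was at the threshold in CSN8 over both DTT states (-0.58 ± 0.16, adjusted p = 0.05) and lost the call under joint quantile normalization, median centring or a variance trend. In the single DTT states it differed by -0.53 ± 0.22 without DTT (adjusted p = 0.231) and by -0.64 ± 0.22 with it (adjusted p = 0.178). It was lower in Wassilewskija than in Columbia (-0.51 ± 0.17, adjusted p = 0.0286), a call that median centring ended, as did leaving out Columbia replicate 1 or 2 or Wassilewskija of batch 2. TAAC, a chloroplast nucleotide carrier, was lower in csn5a-1 (-0.82 ± 0.14, adjusted p = 0.0043). The sulfur status locus AT1G04770, not named in the gene tables, did not pass in the comparisons as fitted. With DTT it differed by -1.31 ± 0.5 in CSN8 (adjusted p = 0.381), by -1.38 ± 0.5 in Wassilewskija (adjusted p = 0.634) and by -1.35 ± 0.35 over both genotypes (adjusted p = 0.132). In the last comparison limma called 0 of 5 sulfur genes, with 2 at an unadjusted p under 0.05. Of all probe sets 2.34% were called there, and 13.9% had such an unadjusted p. When all 14 arrays shared 1 fit, 2 sulfur genes were called, beside 1126 of all probe sets.

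Counted over the lists, which hold the 3 genes themselves, 5 of 13 glucosinolate genes passed in csn5a-1, 2 higher and 3 lower, and 2 of 5 sulfur genes, both lower, where 32.9% of all probe sets passed. Both shares are near that background. Their median differences were -0.23 and -0.31, against -0.04 over all probe sets. In CSN8 over both DTT states, where 14.9% of all probe sets passed, 1 glucosinolate gene was higher and 4 were lower (9 called with the batch as a block), and 1 sulfur gene, SIR, was lower, with 0 called when any array but CSN8 of batch 1 was left out. The medians were -0.48 for each list and 0.03 over all probe sets. The share of 14.9% belongs to the fit without the block. Over the alternatives that kept all arrays, 2 to 9 glucosinolate genes passed, beside 2578 to 5105 of all probe sets. Without Wassilewskija of batch 2 or Wassilewskija + DTT of batch 2, 1 glucosinolate gene passed, without CSN8 + DTT of batch 2, 2 did, and without Wassilewskija or Wassilewskija + DTT of batch 1, 3 did. Without DTT the count was 1, UGT74B1, with 3 under the block, 0 to 4 over all alternatives that kept the arrays and 0 without any 1 of the 4 arrays. With DTT it was 1, GSTU20, with 0 to 4 over those alternatives. Of all probe sets 5.83% passed without DTT and 4.13% with it. Over those alternatives 933 to 2746 probe sets passed without DTT and 589 to 2080 with it. Between the accessions, where 39.2% of all probe sets passed, 8 of 13 glucosinolate genes did, 1 higher and 7 lower in Wassilewskija, with a median of -1.28 against 0 over all probe sets. In Wassilewskija with DTT limma called 0 of 13, with 1 at an unadjusted p under 0.05, and 1 with the block. Of all probe sets 0.365% were called there without the block, and 6.52% had an unadjusted p under 0.05. Over the alternatives that kept all arrays, 17 to 258 probe sets were called.

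**Figure D5:**
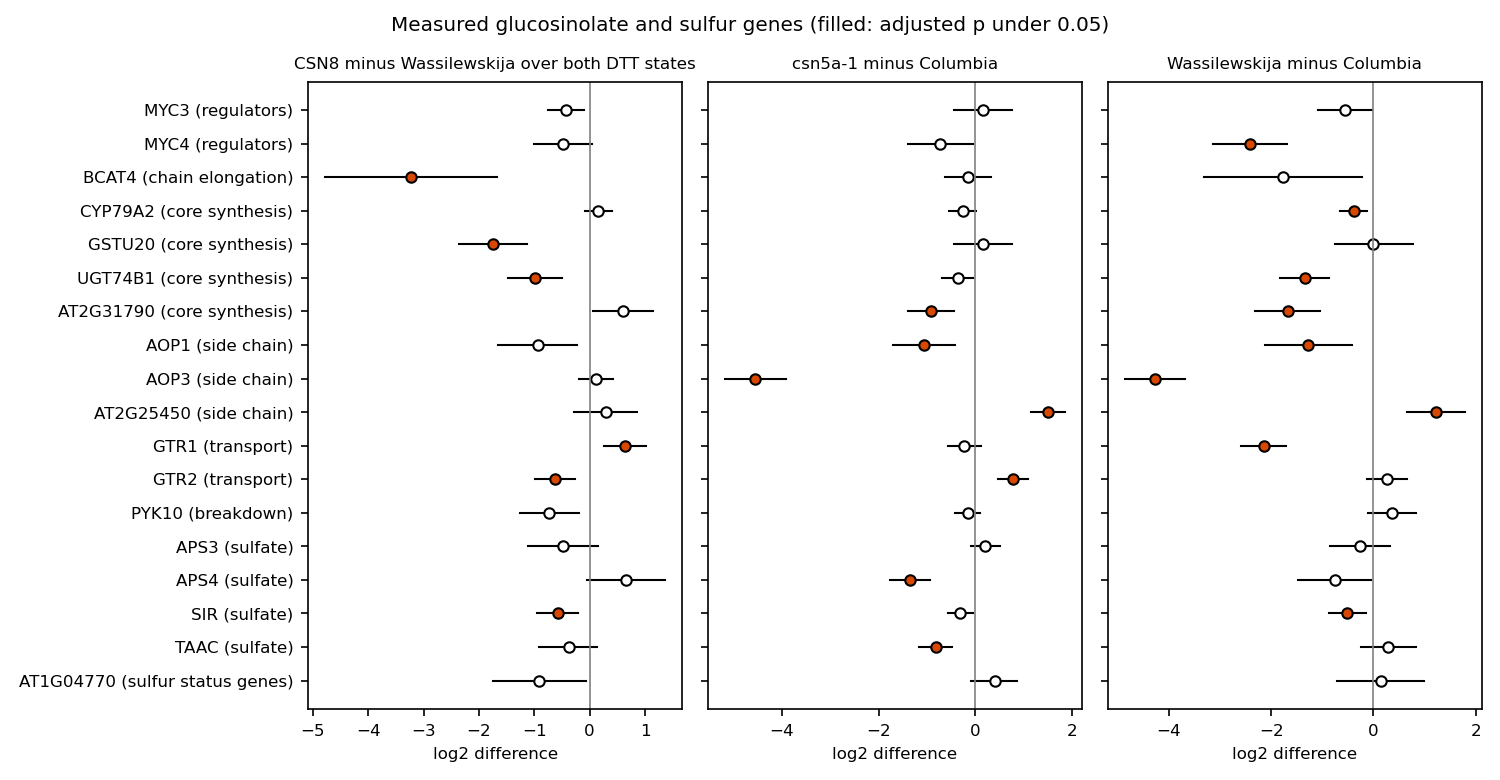
Log2 differences (points) with 95% confidence intervals (lines) of the 18 measured glucosinolate and sulfur genes in 3 comparisons, filled where the adjusted p was under 0.05. The horizontal scale differs between panels. BCAT4 (-3.22) and GSTU20 (-1.75) are lower in CSN8, AOP3 (-4.55) is lowest and AT2G25450 (1.51) highest in csn5a-1, and in Wassilewskija minus Columbia AOP3, MYC4 and GTR1 are far below 0.

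The named genes most like each of the 3 were sought among 1550 other probe sets with a gene symbol, by Pearson correlation over the 14 arrays relative to the mean of each array set. For AOP3 they were the lectin gene JAL23 (r = 0.99), the thionin gene THI2.1 (0.99) and the peroxidase gene PRX52 (0.98). On the 8 Wassilewskija and CSN8 arrays alone these correlations were 0.18, -0.36 and 0.08, so the likeness comes from the csn5a-1 and Columbia arrays. For UGT74B1 they were Phox4 (0.84), the histone gene HTB4 (0.83) and the auxin response regulator IAA18 (0.81), with 0.86 to 0.88 on those 8 arrays. On the csn5a-1 and Columbia arrays alone they were 0.88, 0.55 and 0.45, so the likeness of HTB4 and IAA18 was weaker there. For APS4 the most alike were ATA27 (0.9), MPC (0.85) and the xyloglucan-modifying enzyme gene XTH32 (0.85). They had r of 0.61 to 0.79 on the 8 Wassilewskija and CSN8 arrays and of 0.96 to 0.99 on the csn5a-1 and Columbia arrays.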

How the data were processed

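The deposited values are log2 levels, and the submitters' processing notes name RMA, a method that corrects background, quantile-normalizes the arrays and summarizes probes into probe sets. It gives no detection call. Neither the program's version nor the build is given in the sources used here. Of 22810 probe sets, 64 controls were left out. The platform annotation gave 1 gene for 13513 probe sets, several for 503 and none for 8730; 13436 matched the RefSeq gene table (TAIR10.1), and 1551 had a symbol other than the locus.

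Group means were fitted with limma 3.58.1 in R 4.3.3 (lmFit, contrasts.fit, eBayes), two-sided, with Benjamini-Hochberg adjustment over all 22746 probe sets and a threshold of 0.05. The 6 Columbia and csn5a-1 arrays formed 1 fit and the 8 others another; the mutant effects were compared over all 14, and the accessions over all 14 after quantile normalization. The fits were tested on simulated data. No minimum level was required. Values below the 25th percentile of an array count as near the lower end. The number of arrays limits precision.

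Alternatives were joint quantile normalization, median centring, leaving out the dimmest 33.3% of probe sets, a robust variance trend, the replicate or batch number as a block, another set of arrays, and leaving out each array; raising low values was added after seeing the data. The batch pairs arrays per the labels, and deviations of same-batch arrays from group means correlated with r of 0.07 to 0.57. Genes and lists were chosen with earlier results of these data known. Beside the 3 genes, the text names per list and comparison up to 4 called genes in each direction with the largest change or, where none passed, the gene with the smallest p, and all measured paralogues of the 3 genes. The 3 probe sets most alike in pattern are named for each gene.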

Additional observations from a re-analysis of the deposited data

Results flagged for a closer look

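The effect of CSN8, relative to Wassilewskija, was set against that of csn5a-1, relative to Columbia, by the test of the difference itself in limma. It passed for 8 of the 18 measured glucosinolate and sulfur genes, where 17.6% of all probe sets passed. These 8 include AOP3, UGT74B1 and APS4 themselves. Genes and lists were chosen with earlier results of these data known, so the count cannot be read as an excess over that share. For AOP3 the fitted difference was 4.59 (3.92 with low values raised), but AOP3 was close to the lower end in both CSN8 and Wassilewskija. A decrease in CSN8 may therefore not have been measurable, and the value follows from the high level in Columbia. The difference was 1.9 for APS4 (adjusted p = 0.0168) and -1.08 for UGT74B1 (adjusted p = 0.0364). It was -1.67 for GSTU20 (adjusted p = 0.0341), 1.5 for AT2G31790 (adjusted p = 0.0253), 1.03 for GTR1 (adjusted p = 0.0233) and -1.24 for GTR2 (adjusted p = 0.00616). For CYP79A2 it was 0.62 (adjusted p = 0.0336), between levels near the lower end of the values. For GTR1 the effect was 0.8 in CSN8 (adjusted p = 0.0921) and -0.23 in csn5a-1 (adjusted p = 0.269), neither past the threshold. For GTR2 it was -0.46 in CSN8 (adjusted p = 0.261) and 0.78 in csn5a-1 (adjusted p = 0.00458). Among the 13 glucosinolate genes 7 passed, and 3 to 6 when 1 array was left out, with 3 without Columbia replicate 2 or csn5a-1 replicate 2.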

How the results depend on the processing

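The alternatives that kept all arrays gave 200 values, of which 190 kept direction and side of the threshold, and leaving out 1 array gave 183, of which 149 did; the cause of the changes was not tested. UGT74B1 passed in csn5a-1 after median centring (-0.4) and in CSN8 with DTT in the fit of all 14 arrays (1.07). With low values raised it no longer passed in CSN8 minus Wassilewskija (-1.45) or between the mutant effects (-1.08). APS4 passed between the accessions on deposited values (-1.3). AOP3 turned sign near 0, to 0 for CSN8 minus Wassilewskija, -0.02 for DTT in CSN8 and -0.03 for DTT over both genotypes with low values raised, and to 0.01 for DTT in Wassilewskija after joint normalization. Leaving out the dimmest probe sets gave no value for AOP3 in the Wassilewskija and CSN8 arrays.

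Without 1 array, UGT74B1 ranged from -0.48 to -0.27 in csn5a-1, from -1.65 to -1.25 in CSN8, from -1.17 to -0.8 over both DTT states and from -1.29 to -0.88 between the mutant effects. With DTT it ranged from -0.9 to -0.15 in CSN8. For DTT in Wassilewskija it ranged from -0.08 to 0.36. APS4 ranged from 1.44 to 2.37 between the mutant effects, from -1.2 to -0.31 between the accessions, from -0.86 to 0.26 for DTT in Wassilewskija, from -0.26 to 0.07 for DTT in CSN8, from -0.48 to 0.08 over both genotypes and from -0.36 to 0.76 for the DTT effect in CSN8 minus that in Wassilewskija. AOP3 ranged from -0.04 to 0.43 for CSN8 + DTT, from 0 to 0.24 over both DTT states, from -0.27 to 0.2 for DTT in Wassilewskija, from -0.08 to 0.15 over both genotypes and from -0.09 to 0.38 for that last difference.

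With the batch as a block, the paired fits called 2706 probe sets for CSN8 minus Wassilewskija (1327 without it), 2045 with DTT (940), 186 for DTT in Wassilewskija (83), 705 in CSN8 (293) and 1068 over both genotypes (533). Between the mutant effects the block left UGT74B1 at -1.08 with an adjusted p = 0.0556 and changed no other call of the 3 genes. Columbia and csn5a-1 replicates share only a number (r of deviations 0.04 to 0.07, 5 of 6 arrays best with their own), and the block there called 6925 against 7474. The fit of all 14 arrays called 2746 for CSN8 minus Wassilewskija, 2080 with DTT, 5105 over both states (3386 in the 8 arrays), and 258, 755 and 1126 for DTT in Wassilewskija, in CSN8 and over both. Raising low values called 589 for CSN8 + DTT and 17, 87 and 340 for DTT in that order, and the variance trend 132 in Wassilewskija. Without 1 array the counts were 408 to 1035 for CSN8 minus Wassilewskija, 103 to 490 with DTT, 1584 to 3219 over both states, 1 to 41, 2 to 246 and 147 to 449 for DTT, 0 to 9 for the DTT difference between genotypes, and 2657 to 3916 between the mutant effects. With 2 arrays a group, spread rests on few samples. For AOP3, which is close to the lower end outside Columbia, the folds with low values raised are lower bounds.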
